A study of Mus musculus with 13 samples.

Results

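The genes of glutathione metabolism and peroxide detoxification were examined in gluteal white adipose tissue (WAT), a subcutaneous depot of the rump, of male mice kept in chambers at 22°C or at 29°C. Members were all rows of the count table with a symbol that starts with *Gsta*, *Gstm*, *Gstp*, *Gstt*, *Gstk*, *Gsto*, *Gstz*, *Mgst*, *Gpx* or *Prdx* followed by a digit, together with *Gclc*, *Gclm*, *Gss*, *Gsr*, *Sod1*, *Sod2*, *Sod3*, *Txn1*, *Txn2*, *Txnrd1*, *Txnrd2* and *Nqo1*. This gave 55 rows, of which 4 pseudogenes were dropped, and left 51 of the 34419 genes in the table. Of these, 44 passed the filter on low counts.

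All mice were C57BL/6J males, bred at 22°C (n = 7) or at 29°C (n = 6), which is thermoneutral for mice, and kept there until the age of 13 weeks. In every mouse of both groups the posterior hair was removed with Nair after weaning, and mice lived singly with little bedding and no nesting material, so the temperature of the chamber is what the labels give as differing. RNA of each mouse was sequenced as a library. The comparison asks which transcripts of these enzymes differ in a subcutaneous depot kept cool for life.

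Glutathione is a small thiol made from glutamate, cysteine and glycine. Glutathione S-transferases (GSTs) join it to reactive compounds such as the aldehydes of oxidized lipid, and glutathione peroxidases use it to reduce peroxides. Most peroxiredoxins reduce peroxides with electrons from thioredoxin, and superoxide dismutases make the hydrogen peroxide that both kinds of enzyme remove. In fat, where lipid is stored in bulk and mitochondria oxidize it, these enzymes are known for clearing lipid peroxides.

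Library totals were between 22356637 and 25245785 counts. The totals of 5 mice at 22°C (replicates 1 to 5) were the lowest, from 22356637 to 22857079, whereas the other 2 mice at 22°C and all 6 mice at 29°C had at least 24821549, so a comparison at similar totals, or a model with this totals cluster as a covariate, rests on 2 mice at 22°C. All 8 adipocyte markers were detected, with a summed level of 22979 to 35919 CPM (counts scaled to a common library size) at 22°C and 28815 to 36038 CPM at 29°C. The 15 skeletal muscle markers were all higher in mean at 22°C, with a summed level of 831 to 86292 CPM against 113 to 6909 CPM, and their score was highest in replicates 1 and 7 at 22°C. By edgeR 0 of these 15 genes passed the adjusted test and 8 had an unadjusted p below 0.05, DESeq2 called 7, and none was at 0 in all mice.

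No member passed edgeR's test for a difference between temperatures, the main test here. Of the 44 tested members, 0 were called by edgeR's quasi-likelihood test at a Benjamini-Hochberg adjusted p (P-adj) below 0.1, where 345 of all 17779 tested genes were called (1.94%). An unadjusted p below 0.05 was found for 11 members (25%), against 18.5% of all tested genes, with 4 members higher and 7 lower at 22°C. DESeq2, which the authors used for this tissue, called 8 of 44 members (18.2%), against 10.2% of the 16388 genes to which it gave an adjusted p. The 8 members were *Gsta3*, *Gstm4*, *Gstm5*, *Gstz1*, *Mgst2*, *Mgst3*, *Gpx3* and *Gpx7*. In 0 members did the levels of the groups not overlap, against 1.24% of all tested genes. In bulk tissue, fewer cells of a type and less RNA per cell cannot be told apart.

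Most differences were small, and they were of both signs. In mean, 26 members were higher and 18 lower at 22°C, and the median log2 fold change (22°C relative to 29°C) was 0.046, against 0.0074 for all tested genes. *Gpx4* changed sign with DESeq2's size factors, which gave 25 and 19. In at least 1 of 26 alternatives 14 of the 44 members took the other sign, so counts by direction here and below are of the edgeR estimates with all mice. For 28 of the 44 members the whole 95% confidence interval lay within 0.5 of 0 on the log2 scale. The spread between mice was also small, with a median SD of log2 CPM within groups of 0.192. For all tested genes, which were not matched to the members by level, the median was 0.241. The SD of the members ranged from 0.103 for *Gstp1* to 0.592 for *Gpx3*, the 1 member above 0.5.

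**Figure D1:**
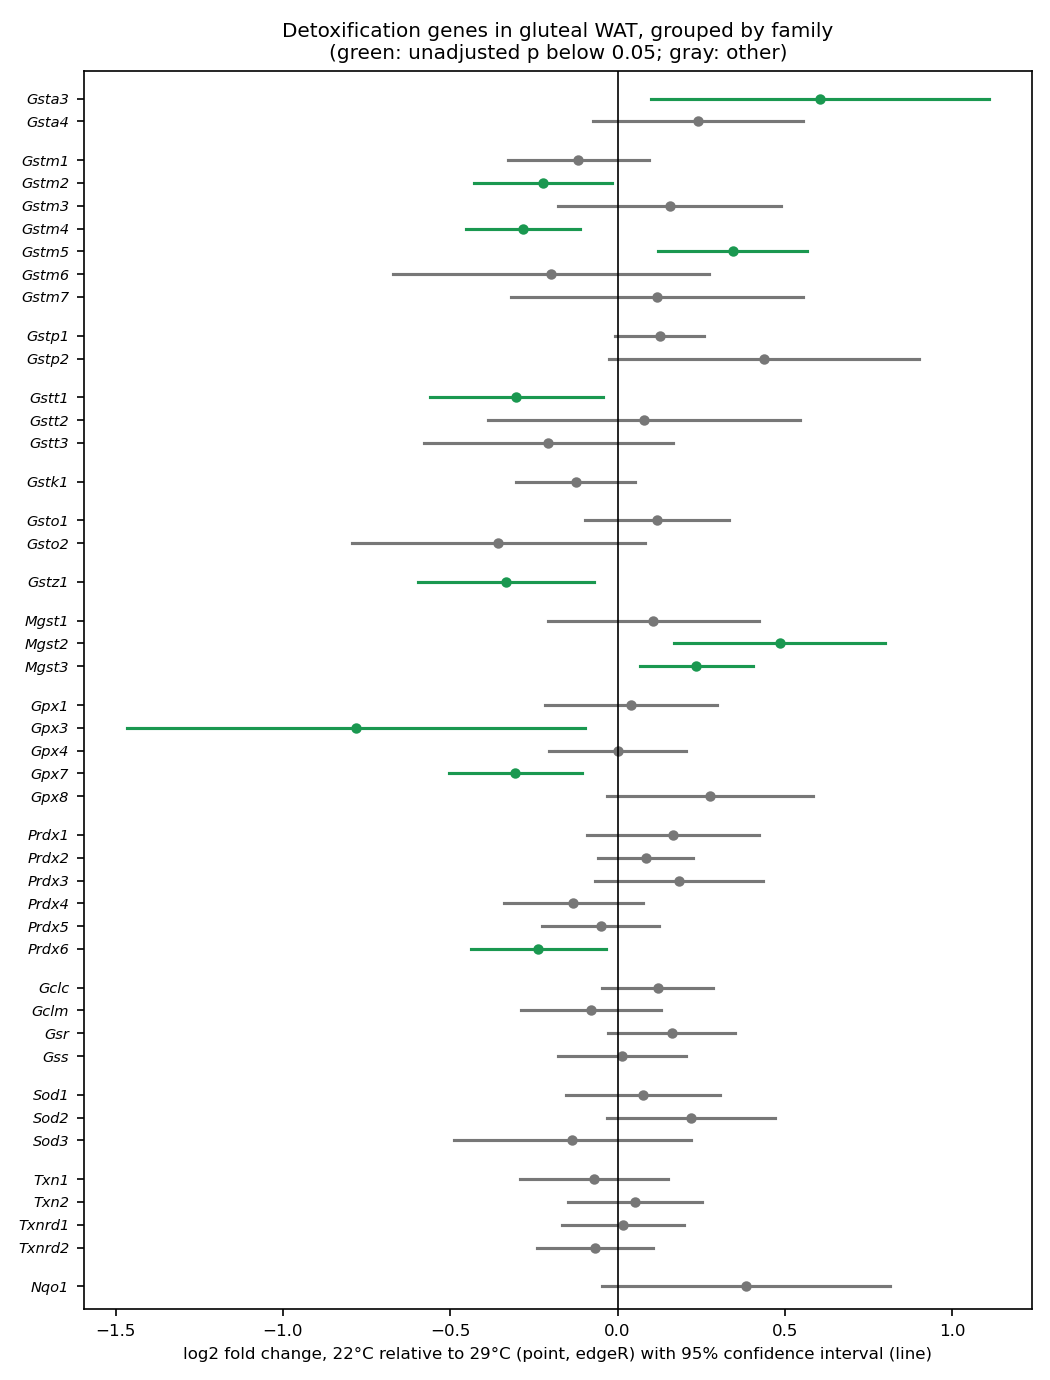
Log2 fold change (x axis, 22°C relative to 29°C) of each of the 44 tested members (y axis, grouped by family). Points are edgeR estimates and lines 95% confidence intervals over 7 and 6 mice; the 11 members with an unadjusted p below 0.05 are green, and they lie on both sides of 0 with *Gpx3* lowest at -0.78 and *Gsta3* highest at 0.60.

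Levels between genes were compared per length, as CPM per kb of exon. *Gpx3*, which encodes the secreted glutathione peroxidase of plasma, had the highest mean level of the members at 1303 CPM per kb. It was followed by *Mgst1* (379 CPM per kb), *Gpx4* (308 CPM per kb), *Gpx1* (292 CPM per kb) and *Gstm1* (282 CPM per kb). *Mgst3*, *Gstz1* and *Sod3* were the other members above 100 CPM per kb. The lowest tested members were *Gsto2* at 0.884 and *Gstm3* at 0.722 CPM per kb.

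The 7 members that were not tested had few counts. *Gsta2*, *Gpx5*, *Gpx6* and *Prdx6b* had at most 5 counts in any library, *Gstt4* at most 7, *Gstp3* at most 12 and *Gpx2* at most 34. *Gpx5* and *Gpx6* were at 0 in 12 of 13 libraries, *Gsta2* and *Prdx6b* in 9 and *Gpx2* in 8. Counting error alone lets a listed 0 stand for as many as 3 counts, which is 0.119 to 0.134 CPM in these libraries.

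Of the cytosolic and kappa GSTs, 18 of 21 were tested, with 9 higher and 9 lower at 22°C. In the alpha class, which conjugates products of lipid peroxidation, both tested members were higher in mean. *Gsta3* (ENSMUSG00000025934.16) was at 70.9, 83.5 and 203 CPM (lowest, median and highest) at 22°C and at 57.5, 62.8 and 86.4 CPM at 29°C. All 7 mice at 22°C were above the median of 29°C, but the groups overlapped, and the highest value belonged to 1 mouse, replicate 6. The log2 fold change was 0.60 (P-adj = 0.205, SE 0.23). Without that mouse it was 0.35, and the other 6 mice at 22°C were between 70.9 and 124 CPM. With the totals cluster in the model it was 1.09. *Gsta4*, an enzyme for the lipid aldehyde hydroxynonenal, had a log2 fold change of 0.24 (SE 0.15).

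The mu class was split. *Gstm4* (ENSMUSG00000027890.18) was at 17.9, 18.8 and 22.2 CPM at 22°C and at 21.5, 23.7 and 26.8 CPM at 29°C. Of the 7 mice at 22°C, 6 were below every mouse at 29°C. The log2 fold change was -0.28 (P-adj = 0.118, SE 0.08), the lowest P-adj of the members. Over 26 alternatives P-adj was between 0.0231 and 0.369, and it was below 0.1 with DESeq2 and without 22°C replicate 6. *Gstm5* (ENSMUSG00000004032.11) went the other way in mean, with 24.2, 28.5 and 37.0 CPM at 22°C and 21.7, 23.5 and 24.6 CPM at 29°C. Here 6 of 7 mice at 22°C were above every mouse at 29°C, and the mice at 29°C lay close together with an SD of 0.94 CPM. The log2 fold change was 0.34 (P-adj = 0.138, SE 0.10). With the muscle score as a covariate it was 0.19. P-adj was between 0.0473 and 0.509 over 26 alternatives, and the same ones were below 0.1 as for *Gstm4*.

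Within each mouse, the counts of *Gstm5* per count of *Gstm4* were between 1.18 and 2.06 at 22°C and between 0.879 and 1.14 at 29°C. This ratio was chosen after its values were seen and was not tested.

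*Gstm2* (ENSMUSG00000040562.13) was at 129, 154 and 180 CPM at 22°C and at 153, 170 and 212 CPM at 29°C. The groups overlapped, with 1 of 7 mice at 22°C above the median of 29°C. Its log2 fold change was -0.22 (P-adj = 0.239, SE 0.10) and came to -0.04 with the totals cluster in the model and -0.14 with the muscle score. *Gstm1*, the most abundant of the class, was at 354, 383 and 495 CPM at 22°C and at 355, 441 and 493.3 CPM at 29°C, with a log2 fold change of -0.12 (P-adj = 0.56, SE 0.10). The ranges of *Gstm1* nearly coincided. *Gstm3*, *Gstm6* and *Gstm7* were low, between 0.653 and 8.52 CPM, with log2 fold changes of 0.16 (SE 0.15), -0.20 (SE 0.22) and 0.12 (SE 0.20). *Gstm7* turned to -0.45 with the totals cluster in the model. Mu class genes are close copies of each other, so their counts depend on how shared reads were assigned.

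In the pi class, *Gstp1* was at 76.6, 85.5 and 93.6 CPM at 22°C and at 72.2, 77.5 and 88.1 CPM at 29°C. It varied least of the members between mice, and its log2 fold change was 0.13 (P-adj = 0.302, SE 0.06). Its near copy *Gstp2* had a log2 fold change of 0.44 (SE 0.22), and 0.07 with the muscle score as a covariate. In the theta class, *Gstt1* (ENSMUSG00000001663.11), known for breaking down small halogenated compounds, was at 70.6, 91.4 and 117 CPM at 22°C and at 98.1, 113 and 129 CPM at 29°C. Of the mice at 22°C, 4 of 7 were below every mouse at 29°C. The log2 fold change was -0.30 (P-adj = 0.211, SE 0.12), and it was -0.53 with the totals cluster in the model and -0.18 without the mice of highest muscle score. *Gstt2* and *Gstt3* had log2 fold changes of 0.08 (SE 0.22) and -0.21 (SE 0.17). *Gstt2* turned to -0.04 without 29°C replicate 1 or without 29°C replicate 6, and to -0.17 with the totals cluster in the model.

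The remaining cytosolic classes and the kappa class have few genes each. *Gstz1* (ENSMUSG00000021033.12), the maleylacetoacetate isomerase of tyrosine breakdown, was at 626, 746 and 900 CPM at 22°C and at 657, 975 and 1128 CPM at 29°C. All 7 mice at 22°C were below the median of 29°C, while 2 of 6 mice at 29°C lay within the range of 22°C. The log2 fold change was -0.33 (P-adj = 0.188, SE 0.12). It was -0.21 with the muscle score as a covariate. *Gstk1*, a mitochondrial and peroxisomal GST, was at 43.6, 56.3 and 58.3 CPM at 22°C and at 48.0, 60.5 and 66.7 CPM at 29°C (log2 fold change -0.13, P-adj = 0.445, SE 0.08). *Gsto1*, which reduces thiol adducts, was at 52.1, 65.8 and 74.8 CPM at 22°C and at 52.6, 57.9 and 76.1 CPM at 29°C (log2 fold change 0.12, P-adj = 0.566, SE 0.10). *Gsto2* had a log2 fold change of -0.36 (SE 0.20). Both *Gstk1* and *Gsto1* overlapped widely between temperatures.

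The microsomal GSTs are membrane enzymes of a separate family, and all 3 had a higher mean at 22°C, *Mgst1* no longer when replicate 6 was left out. *Mgst2* (ENSMUSG00000074604.10), which can make leukotriene C4 and reduces lipid peroxides, was at 14.6, 16.5 and 24.9 CPM at 22°C and at 9.78, 13.4 and 15.3 CPM at 29°C. All 7 mice at 22°C were above the median of 29°C, and 5 were above every mouse at 29°C. The log2 fold change was 0.48 (P-adj = 0.137, SE 0.15), and 0.83 with the totals cluster in the model. *Mgst3* (ENSMUSG00000026688.6) was at 176, 202 and 236 CPM at 22°C and at 148, 176 and 186 CPM at 29°C. Of the mice at 22°C, 6 of 7 were above every mouse at 29°C. The log2 fold change was 0.23 (P-adj = 0.167, SE 0.08). *Mgst1* was at 561.6, 801 and 1148 CPM at 22°C and at 629, 739.9 and 824 CPM at 29°C (log2 fold change 0.11, P-adj = 0.74, SE 0.15), and without replicate 6 at 22°C its log2 fold change was -0.0067.

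**Figure D2:**
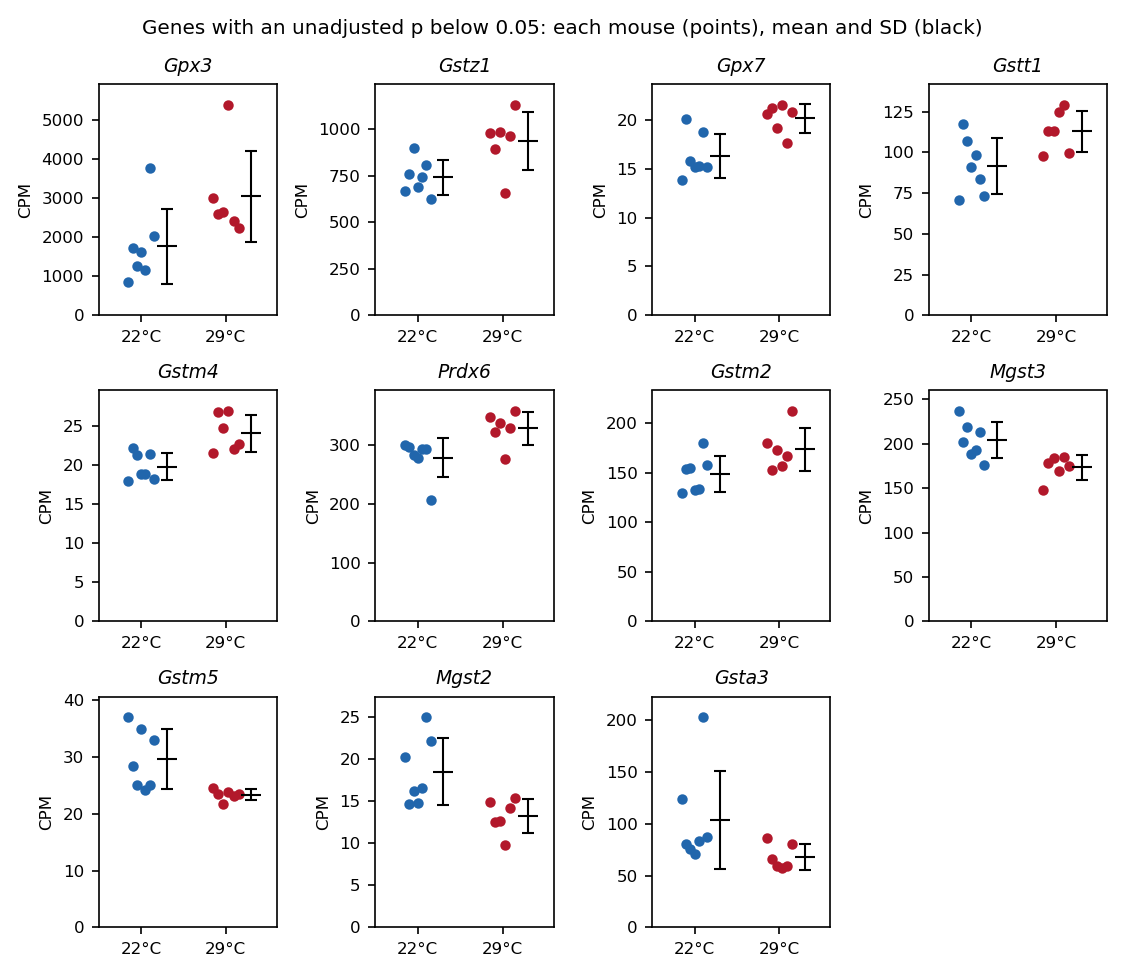
CPM (y axes, from 0) of the 11 members with an unadjusted p below 0.05 in each mouse at 22°C (blue, n = 7) and 29°C (red, n = 6), with the mean and SD in black. In every panel the groups overlap; *Gpx3* and *Gsta3* each show 1 mouse at 22°C far above the others, at 3769 and 203 CPM.

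Among the glutathione peroxidases, 5 of 8 were tested. *Gpx3* (ENSMUSG00000018339.13) was at 849.9, 1616 and 3769 CPM at 22°C and at 2246, 2621 and 5373 CPM at 29°C. At 22°C, 6 of 7 mice, between 849.9 and 2027 CPM, were below every mouse at 29°C, and replicate 6 was above 5 of the 6. The log2 fold change was -0.78 (P-adj = 0.217, SE 0.32), the largest of the members and the least precise. Without replicate 6 at 22°C it was -1.08 with P-adj = 0.0688, and over 26 alternatives P-adj was between 0.0688 and 0.958. Without replicate 4 at 29°C the log2 fold change was -0.54, and with the totals cluster in the model it was -0.07.

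Both mice with the highest *Gpx3* at their temperature also had the highest fibroblast marker score of it, a mean of 8.98 and 9.05 log2 CPM. By summed fibroblast markers, however, 22°C replicates 4 and 2 (7649 and 7583 CPM) were above replicate 6 (7135 CPM). Their *Gpx3* was at 1616 and 1728 CPM. The macrophage marker score was highest in the same 2 mice, at 6.95 and 6.97 log2 CPM, although 29°C replicate 1 was level with replicate 4 (6.97) and had the highest summed macrophage markers. The part of either cell type in the level of *Gpx3* was not tested. The 7 fibroblast and progenitor markers had a summed level of 4024 to 7649 CPM at 22°C and 5674 to 8371 CPM at 29°C, 2 were higher and 5 lower at 22°C in mean, 0 were called by edgeR or DESeq2, 1 had an unadjusted p below 0.05, and none was at 0 in all mice. Without these 2 mice, highest for both scores, the log2 fold change of *Gpx3* was -0.84 and that of *Gsta3* was 0.31. *Gpx3* made up 12.5% to 34.2% of the summed CPM of the members at 22°C and 24.3% to 48.2% at 29°C. The sum of all members was 8014 ± 1391 CPM at 22°C (SD, n = 7) and 9403.5 ± 883 CPM at 29°C (SD, n = 6). Without *Gpx3* the sum was 6240 ± 629 CPM at 22°C (SD, n = 7) and 6353 ± 418 CPM at 29°C (SD, n = 6).

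*Gpx7* (ENSMUSG00000028597.12) encodes a peroxidase of the endoplasmic reticulum that lacks selenocysteine. It was at 13.9, 15.3 and 20.1 CPM at 22°C and at 17.6, 20.7 and 21.4 CPM at 29°C. Of the mice at 22°C, 5 of 7 were below every mouse at 29°C. The log2 fold change was -0.31 (P-adj = 0.137, SE 0.09). P-adj was between 0.0367 and 0.482 over 26 alternatives, and below 0.1 with DESeq2, without 22°C replicate 2 and without 22°C replicate 6. *Gpx8*, its relative in the same compartment, had a log2 fold change of 0.28 (P-adj = 0.32, SE 0.14) with 20.7, 37.3 and 43.2 CPM at 22°C and 25.3, 29.1 and 34.3 CPM at 29°C. *Prdx4*, the peroxiredoxin there, had -0.13 (SE 0.10). *Gpx7*, *Gpx8* and *Prdx4* thus did not share a sign.

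The selenoenzymes *Gpx1*, for soluble peroxides, and *Gpx4*, for peroxides within membrane lipid, had the smallest differences of the 8 members above 100 CPM per kb. *Gpx1* was at 318, 422 and 514 CPM at 22°C and at 374, 418 and 449 CPM at 29°C, with a log2 fold change of 0.04 (95% confidence interval -0.22 to 0.30). *Gpx4* was at 462, 529 and 640.3 CPM at 22°C and at 479, 509 and 619 CPM at 29°C, with a log2 fold change of 0.00 (95% confidence interval -0.21 to 0.21). A pseudogene, *Gpx4-ps2*, held 259 to 457 counts per library, and how reads shared with *Gpx4* were assigned is not known.

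Of the peroxiredoxins, 6 of 7 were tested, with 3 higher and 3 lower at 22°C. *Prdx6* (ENSMUSG00000026701.16) reduces phospholipid peroxides and also has phospholipase activity. It was at 206, 293 and 300.0 CPM at 22°C and at 276, 333 and 357 CPM at 29°C. At 29°C, 5 of 6 mice were above every mouse at 22°C, and at 22°C replicate 7 stood below the other 6, which were between 279 and 300.0 CPM. The log2 fold change was -0.24 (P-adj = 0.209, SE 0.09), -0.17 without that mouse and -0.39 with the totals cluster in the model. *Prdx1* and *Prdx2* of the cytosol had 0.17 and 0.08, *Prdx3* of mitochondria 0.18 and *Prdx5* -0.05 on the log2 scale.

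**Figure D3:**
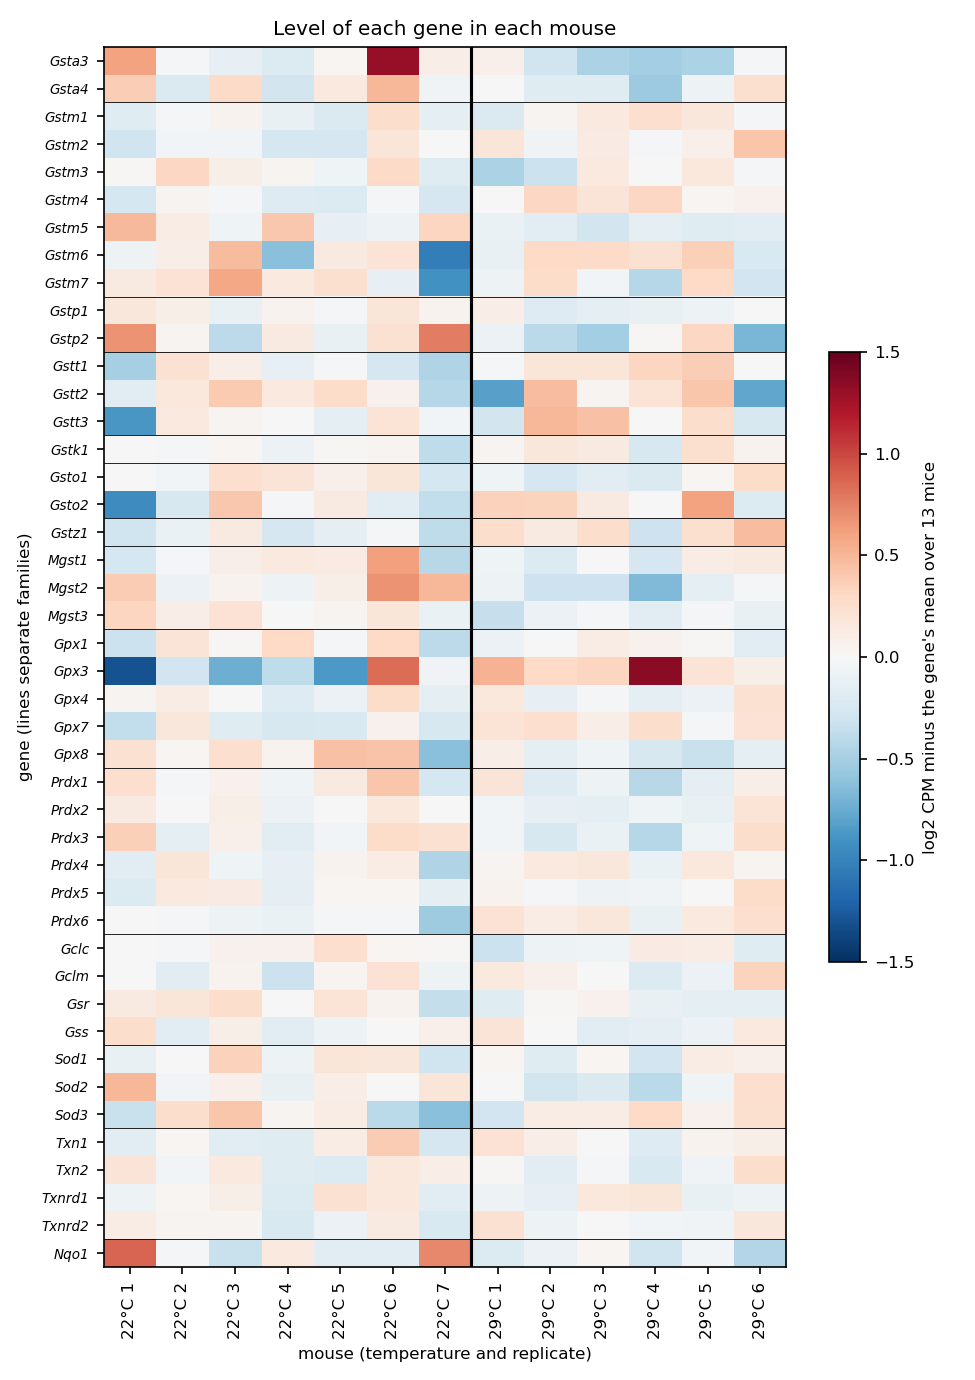
Level of each tested member (rows, lines separate families) in each mouse (columns, 7 at 22°C left of the black line and 6 at 29°C right of it), as log2 CPM minus the mean of the gene over the 13 mice. *Gpx3* varies most between mice, and 22°C replicate 7 is low for *Prdx6*, *Gpx8*, *Gstk1* and *Gsr*.

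The genes that make and recycle glutathione had small differences. *Gclc* and *Gclm* encode the catalytic and the modifier subunit of the rate-limiting ligase. Their log2 fold changes were 0.12 (P-adj = 0.426, SE 0.08) and -0.08 (P-adj = 0.709, SE 0.10), and *Gss*, for the second step, had 0.01 (SE 0.09). Counts of *Gclc* per count of *Gclm* were 0.916 ± 0.116 at 22°C (SD, n = 7) and 0.808 ± 0.192 at 29°C (SD, n = 6). *Gsr*, which returns oxidized glutathione to its reduced form with NADPH, was at 30.7, 43.3 and 47.0 CPM at 22°C and at 34.7, 36.0 and 41.1 CPM at 29°C. Its log2 fold change was 0.16 (P-adj = 0.35, SE 0.09), and it turned to -0.054 with the totals cluster in the model.

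The superoxide dismutases act in different places. *Sod3*, the extracellular enzyme, was at 264, 422 and 545 CPM at 22°C and at 334, 441 and 502 CPM at 29°C (log2 fold change -0.13, P-adj = 0.706, SE 0.16). Its range at 22°C held the whole range at 29°C, and the log2 fold change was 0.039 with the muscle score as a covariate and -0.61 with the totals cluster in the model. *Sod1* of the cytosol had 0.08 (SE 0.11) and *Sod2* of mitochondria 0.22 (SE 0.12). *Sod2* was at 143, 163 and 218 CPM at 22°C and at 116, 139.8 and 184 CPM at 29°C, and all 7 mice at 22°C were above the median of 29°C.

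In the thioredoxin system, *Txn1*, *Txn2*, *Txnrd1* and *Txnrd2* had log2 fold changes between -0.07 and 0.05, with SEs of 0.081 to 0.103. *Txn2*, the mitochondrial thioredoxin, was at 122, 150.3 and 160.3 CPM at 22°C and at 120.1, 137 and 169 CPM at 29°C (P-adj = 0.803). The 6 members grouped here as mitochondrial (*Gstk1*, *Prdx3*, *Prdx5*, *Sod2*, *Txn2* and *Txnrd2*) had a median log2 fold change of 0.00086. Of these, 3 were higher and 3 lower. The group was chosen by hand and may leave out members that also have a mitochondrial form. *Nqo1*, a quinone reductase known as a target of the regulator NRF2, was at 5.66, 6.97 and 13.1 CPM at 22°C and at 5.22, 6.45 and 7.31 CPM at 29°C (log2 fold change 0.38, P-adj = 0.324, SE 0.20). Its 2 highest values belonged to the mice with the highest muscle score, replicates 1 and 7 at 22°C. The other 5 mice at 22°C were between 5.66 and 7.89 CPM, and without those 2 mice the log2 fold change was 0.06.

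**Figure D4:**
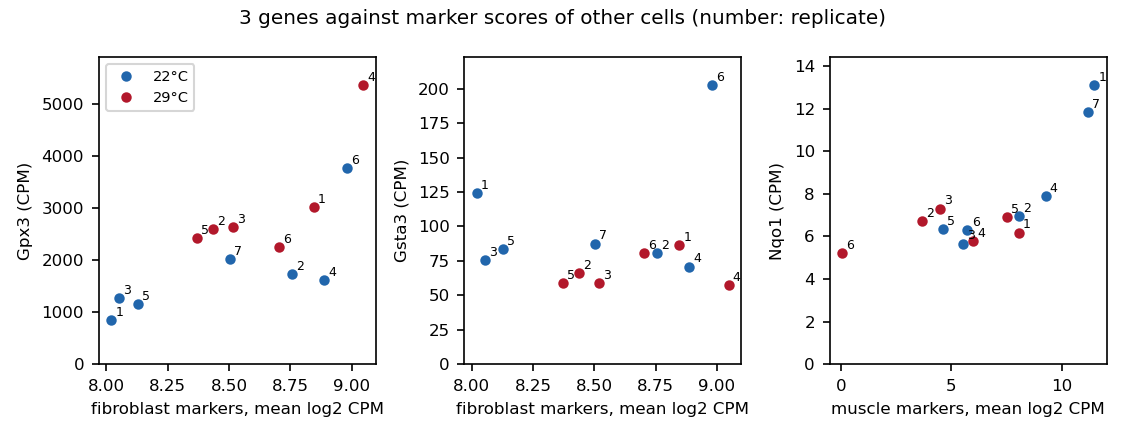
CPM (y axes, from 0) of *Gpx3* and *Gsta3* against the fibroblast marker score and of *Nqo1* against the muscle marker score (x axes, mean log2 CPM of the markers), for each mouse at 22°C (blue) and 29°C (red), numbered by replicate. 22°C replicate 6 and 29°C replicate 4 have the highest *Gpx3* and fibroblast scores of their temperature, and 22°C replicates 1 and 7 the highest *Nqo1* and muscle scores.

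Many of these genes are known targets of NRF2, which binds the antioxidant response element. Its core, TGACNNNGC, was searched on both strands in RefSeq promoters of the GRCm38.p6 build, from 250 bases before to 50 after each start. Of 51 members, 44 had a promoter in the table, and 8 of these genes (18.2%) held the core, against 14% of 27025 genes. Counted per promoter, 8 of 58 (13.8%) held it, with a 95% Wilson interval of 7.16% to 24.9% for counting error only, against 12.4% of 32851. The other genes with a match were *Gstm7*, *Mgst1*, *Txnrd1* and *Sod1*. Shown here, with the match in capitals, are the stretches of 2 members with an unadjusted p below 0.05, both higher in mean at 22°C, and of 2 textbook NRF2 targets with small differences. They are read along the strand of the gene, and a match is not evidence of binding.
Gsta3, chr1:21240444-21240492, plus strand: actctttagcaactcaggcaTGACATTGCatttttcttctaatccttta
Gstm5, chr3:107895792-107895840, plus strand: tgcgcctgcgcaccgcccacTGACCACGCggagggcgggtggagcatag
Prdx1, chr4:116685446-116685494, plus strand: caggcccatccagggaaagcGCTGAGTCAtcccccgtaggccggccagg
Gclm, chr3:122245403-122245451, plus strand: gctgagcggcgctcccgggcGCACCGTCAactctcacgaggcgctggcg

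Of these 4, *Gsta3* and *Gstm5* carry the core in the forward direction, and *Prdx1* and *Gclm* carry its reverse complement. The 8 genes had log2 fold changes from -0.08 for *Gclm* to 0.60 for *Gsta3*, and 0 were called by edgeR. Of the 8, 7 were higher in mean at 22°C, where 26 of all 44 tested members were. With the totals cluster in the model, *Gstm7* and *Sod1* turned to -0.45 and -0.01 and *Gclm* to 0.03. *Mgst1* turned to -0.0067 without 22°C replicate 6, and *Txnrd1* to -0.023 without 22°C replicate 5.

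Genes of the same pathways outside the member rule were taken from 5 lists of 61 genes. Both edgeR and DESeq2 called 1 of them, *Sesn1*. Over all genes, edgeR called 1.94% of those tested and DESeq2 10.2% of those with an adjusted p. An unadjusted p below 0.05 was found by edgeR for 18.5%. Of 14 tested genes for glutathione supply and turnover, 7 were higher and 7 lower in mean at 22°C, and 0 were called, with an unadjusted p below 0.05 for 3. *Cth*, which makes cysteine from cystathionine, had a log2 fold change of -0.43 (P-adj = 0.254, SE 0.19), with 7.77 to 14.3 CPM at 22°C and 9.40 to 20.2 CPM at 29°C. *Oplah*, which recovers glutamate from oxoproline, had 0.27 (P-adj = 0.23, SE 0.11), and *Slc3a2*, the partner chain of the cystine transporter, had -0.24 (P-adj = 0.246, SE 0.11). *Slc25a39*, a mitochondrial glutathione carrier, had the highest CPM of the list, 186 at 22°C and 167 at 29°C in mean. *Slc7a11* and *Ggt1* had too few counts to be tested.

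Of 7 tested genes that supply NADPH, 3 were higher, 4 lower and 0 called, 0 having an unadjusted p below 0.05, and *Tkt* of the pentose phosphate path had the highest CPM of the list, 433 to 2048 CPM at 22°C and 378 to 1601 CPM at 29°C. *Nnt* was on 2 rows of the table and was left out. Of 18 regulators and other targets of NRF2, 13 were higher, 5 lower and 0 called, and 1 had an unadjusted p below 0.05. *Mafg*, a small MAF partner of NRF2, had a log2 fold change of 0.15 (P-adj = 0.23, SE 0.06), *Nfe2l2*, which encodes NRF2, had -0.08 (SE 0.09), and *Fth1*, the ferritin heavy chain, with the highest CPM of the list, had -0.04 (SE 0.08). Of 6 genes for selenoprotein synthesis and selenium transport, 4 were higher, 2 lower and 0 called, and 1 had an unadjusted p below 0.05. *Sephs2*, which makes selenophosphate, had 0.31 (P-adj = 0.262, SE 0.14), and *Selenop*, the selenium carrier of plasma, had 0.06 (SE 0.10).

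The 1 pathway gene that passed the test was *Sesn1*, a sestrin, which protects from oxidative stress and restrains growth signalling. Over all tested genes 1.94% were called, so 1 call in 61 listed genes is near that share. It was 1 of 13 tested thiol and disulphide genes, of which 8 were higher and 5 lower in mean. It was at 29.1 to 34.0 CPM at 22°C and at 31.8 to 46.1 CPM at 29°C, so the ranges overlapped. It fell by 0.35 on the log2 scale (P-adj = 0.0714, SE 0.08), and P-adj was between 0.019 and 0.17 when single mice were left out and between 0.00302 and 0.366 over 26 alternatives, 13 of which called it. The call was lost without 22°C replicate 4, 5 or 7 and without any 1 of 29°C replicates 1 to 5. *Txnip*, an inhibitor of thioredoxin with the highest CPM of these genes, had -0.39 (P-adj = 0.548, SE 0.32).

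**Figure D5:**
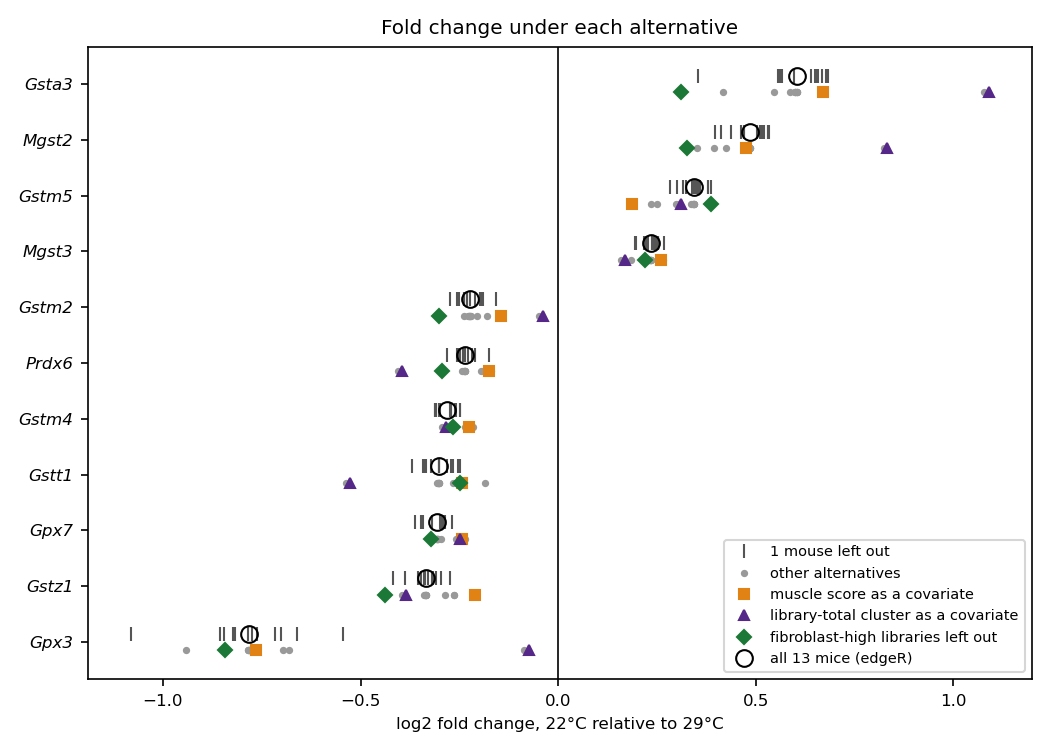
Log2 fold change (x axis, 22°C relative to 29°C) of the 11 members with an unadjusted p below 0.05 (y axis) with all 13 mice (open circles), with 1 mouse left out (gray bars) and under the other alternatives. No point crosses 0; with the totals cluster in the model, *Gpx3* is at -0.07 and *Gstm2* at -0.04, while *Gsta3* is at 1.09 and *Mgst2* at 0.83.

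Markers of other cell types were also summed in each mouse. Summed levels at 22°C and 29°C were 621 to 1247 and 658 to 1314 CPM for 8 macrophage markers, 442 to 616 and 450.2 to 644 CPM for 6 endothelial markers, and 18.5 to 45.9 and 13.8 to 40.6 CPM for 7 lymphocyte markers. They were 287 to 757 and 319.8 to 3375 CPM for 6 red blood cell markers, 1.14 to 55.3 and 1.55 to 245 CPM for 7 epithelial markers, and 69.7 to 334 and 43.3 to 76.3 CPM for 9 brown and beige fat markers. Of these lists, 3 brown and beige genes and 1 lymphocyte gene were called by edgeR, 6 and 0 by DESeq2, and no marker was at 0 in all mice. The part of these cells in the members' values was not tested, apart from the fits with the muscle score and without the mice of highest muscle or fibroblast score.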

How the data were processed

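RNA of gluteal WAT from 7 mice at 22°C and 6 mice at 29°C was compared. The authors aligned reads with STAR (2.7.5a in the submitters' processing notes, which name GRCm39) and deposited raw counts per gene from featureCounts for 34419 genes, together with log2 values (regularized, from DESeq2). The annotation and strand setting are not given in the sources used here, so counts of overlapping genes, pseudogenes and close paralogs are uncertain. Symbols were matched by identifier without version, for 34006 genes. Exon lengths are from GENCODE M21 (GRCm38), a different build.

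Counts were compared with edgeR 4.0.16 in R 4.3.3 (TMM, filterByExpr, quasi-likelihood F test, Benjamini-Hochberg over 17779 genes, called at P-adj below 0.1), with temperature as the 1 factor. The SE was taken from the fold change and F. CPM use TMM-scaled totals, and log2 CPM, averaged into marker scores, a prior count of 2. Scripts were tested on simulated data. Members, lists and tests were chosen with earlier results of these data known. Members with an unadjusted p below 0.05 and the member of highest CPM in each family are given in full. The CPM of *Gpx1*, *Gpx4*, *Gpx8* and *Sod2* at each temperature are also given, although they meet neither criterion. From pathway lists, genes called, with an unadjusted p below 0.05 or with the highest CPM are named, and *Nfe2l2*, *Slc7a11* and *Ggt1* were named outside this rule.

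Alternatives were DESeq2 1.42.0, its size factors, no filter, a filter at a mean of 10 counts, robust fitting, a replicate block, the muscle score or the totals cluster as a covariate, higher totals only, limma 3.58.1 on the deposited log2 values, muscle genes removed, and each mouse left out. Leaving out the mice of highest muscle score, or of highest fibroblast score at each temperature (also highest in macrophage score), was added after seeing the data. No library was found under more than 1 label.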

Additional observations from a re-analysis of the deposited data

Results flagged for a closer look

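Within each temperature, 9 of 88 groups of log2 CPM (44 members at 2 temperatures) had a lowest or highest mouse that stood apart by Dixon's ratio, the gap to the nearest mouse divided by the range, above 0.568 for 7 mice or 0.625 for 6. Chance flags about 1 in 20 groups. 22°C replicate 7 was the lowest mouse of its temperature for 19 of the 44 tested members, and for 4 of these it stood apart: *Prdx6* at 206 CPM against 279 CPM in the nearest mouse (ratio 0.804), *Gstk1* at 43.6 against 53.5 CPM (0.7), *Gpx8* at 20.7 against 32.6 CPM (0.618) and *Gsr* at 30.7 against 39.4 CPM (0.586). That mouse had the lowest adipocyte marker score of the 13 (11.15, the others 11.29 to 11.78 log2 CPM) and the second highest muscle score (11.21). The part of these in the low values was not tested. Other mice were also often at 1 end of their temperature. Of the 44 members, 29°C replicate 4 was lowest for 17, 22°C replicate 6 highest for 16 and 29°C replicate 6 highest for 14.

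In 22°C replicate 1, with the highest muscle score (11.47), *Gstt3* was lowest at 18.8 against 31.2 CPM (0.678). In 22°C replicate 5, *Gclc* was highest at 35.4 against 31.2 CPM (0.669). At 29°C, *Gpx3* was highest in replicate 4 at 5373 against 3015 CPM (0.662), and replicate 6 was highest for *Prdx2* at 130.2 against 109.9 CPM (0.706) and *Prdx5* at 213 against 182 CPM (0.633).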

How the results depend on the processing

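Of 520 values of 20 named members under 26 alternatives, 500 kept their direction and their side of the threshold, 13 passed it and 7 turned. As no member was called with all mice, a value of any size with the same sign and P-adj of at least 0.1 counted as kept. *Gpx3* at -0.07 and *Gstm2* at -0.04 with the totals cluster in the model were among these. Of the 26 alternatives, 13 differ by only 1 mouse left out, so the count is no measure of how steady the sizes were. The values that turned were *Sod3* at 0.039 with the muscle score as a covariate and 0.0081 without the mice of highest muscle score, *Gsr* at -0.054 with the totals cluster in the model and -0.064 in libraries with higher totals, *Mgst1* at -0.0067 without 22°C replicate 6 (-0.0067 to 0.17 over single mice left out) and -0.045 without the mice of highest fibroblast score, and *Txn2* at -0.0062 without the latter; the cause was not tested. Outside the 20 named members, 10 of the other tested members also turned in at least 1 alternative: *Gclm*, *Gpx1*, *Gpx4*, *Gss*, *Gstm7*, *Gstt2*, *Prdx5*, *Sod1*, *Txn1* and *Txnrd1*, with *Gstm7* reaching -0.46 and *Gstt2* -0.18 in libraries with higher totals. The count of called members was 0, but 8 with DESeq2, 11 at an unadjusted p below 0.05, and 0 to 4 when 1 mouse was left out (1 without 22°C replicate 2, *Gpx7*, and 4 without replicate 6, *Gstm4*, *Gstm5*, *Gpx3* and *Gpx7*). Members with an unadjusted p below 0.05 numbered 11, and 7 with the totals cluster in the model and 10 to 14 when 1 mouse was left out. They numbered 8 with the muscle score as a covariate and 9 without the mice of highest muscle score. The median log2 fold change of the members was 0.0038 to 0.068 when 1 mouse was left out. The 1 called pathway gene, *Sesn1*, was 0 to 1 when 1 mouse was left out, and 0 without a filter, with the totals cluster in the model, in libraries with higher totals and without the mice of highest fibroblast score.

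In the labels, same-numbered mice share only a number. Of the 6 pairs, the deviations of replicate 5 from the group means correlated at 0.051 and those of the others at 0.348 to 0.513. Of the 6, 4 correlated best with their own number. Whether same-numbered mice shared a batch is not given and was not tested. With the replicate block, 0 members and 0 pathway genes were called, 17 members had an unadjusted p below 0.05, and 214 genes were called against 345. Replicate 7 exists only at 22°C, so the temperature difference in that fit rests on the 6 pairs without it. Effects of the block and of losing that mouse cannot be told apart there. Over all genes, calls numbered 345, but 1676 with DESeq2 and 32 to 652 when 1 mouse was left out. They numbered 41 with the muscle score as a covariate and 4 with the totals cluster in the model. In libraries with higher totals they numbered 8, and without a filter 42. At these totals, the 7 members with few counts could not be compared. In promoters of the 250 bases alone, 13.8% of member promoters and 10.2% of all held the core.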
